A study of Danio rerio with 5 samples.

Results

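The Hox genes were 49 of the 36351 genes counted in the single-cell libraries, taken as every gene whose symbol is hox, a letter from a to d, a number and an optional a or b. The series holds 5 samples of cells sorted by flow cytometry from zebrafish 5 days after fertilization. In 2 of them, EGFP-positive cells of Tg(pdgfrb:egfp)ncv22 fish were made into 10x Genomics 3′ v3 single-cell libraries (library 1 and library 2). In the other 3, citrine-positive cells of Tg(pdgfrb:citrine)s1010 fish that carry the allele um148, which the strain label assigns to pdgfb, gave bulk libraries by oligo-dT priming (um148 libraries 1 to 3). In both lines the reporter is driven by sequences of pdgfrb, a receptor of platelet-derived growth factor known from mural cells, so the sampled cells are those in which the reporter was on. The labels do not say whether libraries came from separate pools of larvae, so the spread behind every p-value may be technical. In the tests made here between groups of cells, with the library as a block, it is how far differences between groups varied across libraries. A later test compared cells within groups, with each library and group as a pair. There the spread is how far the difference varied across both libraries and groups. The authors' p-values for um148 rest on the spread between bulk libraries.

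Hox genes encode homeodomain transcription factors that give cells along the head-to-tail axis their position. They lie in clusters in which gene order follows the order of expression along the body. Genes of low paralog number are known from the hindbrain and pharynx, genes of intermediate number from the spinal cord and trunk, and genes of high number from the tail, and from the fins, where zebrafish hoxa13a, hoxa13b and hoxd13a are needed for the distal skeleton. Here the 49 genes are grouped as anterior (paralog groups 1 to 4, 14 genes), central (groups 5 to 8, 12 genes) and posterior (groups 9 to 13, 23 genes). They come from 7 clusters: hoxaa (7 genes), hoxab (5), hoxba (11), hoxbb (4), hoxca (11), hoxcb (4) and hoxda (7). In the RefSeq gene models of another assembly, 5 of them, hoxa3a, hoxb3a, hoxb1b, hoxc3a and hoxd3a, span 13 other Hox genes, hoxb5a, hoxb5b, hoxc4a, hoxc8a and hoxc9a among them. How the counting treated such overlaps is not given in the sources used here, so values of these 18 genes are uncertain as to which of the overlapping genes the reads came from.

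After filtering, 5935 cells of library 1 (49.0% of barcodes) and 7851 of library 2 (77.1%) remained, with 11796 and 16405 Hox UMIs (unique molecular identifiers, each 1 counted transcript). A limit of 10% mitochondrial UMIs removed 3976 barcodes of library 1 and 407 of library 2, and 11 barcodes were shared by the libraries. Cells were assigned to gates by at least 3 detected markers of a list that contained no Hox gene, so no Hox count decided a cell's gate. In some gates Hox levels still moved with the number of markers required, as given under the processing below. The 8 gates used here held 2637 and 3586 cells, from 80 and 121 (tenocyte) to 556 and 758 (fin), and 2816 and 3602 cells fell in no gate. Of the 10 leading genes of each gate, 3 to 5 were its own markers, except in the fin gate, where none was: it was led by ucp1, fbln1 and c1qtnf5. Of these, fbln1 is a marker of the fibroblast gate. It was found in 68.9% and 69.3% of fin-gate cells and 28.7% and 20.7% of fibroblast-gate cells. The fibroblast marker dcn was found in 49.8% and 54.6% of fin-gate and 91.7% and 93.2% of fibroblast-gate cells, so the 2 gates share markers. Cells of the fin gate carried the actinotrichia genes and1 (77.0% and 76.1% of cells in library 1 and library 2) and and2 (93.5% and 92.6%). Both are among the markers that define the gate, so these shares follow in part from the gating. In the other main gates and2 was found in 19.0% (pericyte, library 2) to 36.3% (cartilage, library 1) of cells. The gate is named only for its markers and is called the fin-marker gate below. A UMI of pdgfrb was found in 60.6% and 61.8% of pericyte-gate cells but in 3.6% and 1.8% of neuron-gate cells, so the sort held cells with little detected pdgfrb.

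The fin-marker and neuron gates had the highest summed Hox levels per total UMIs and drew on different parts of the series of paralog groups, posterior against central and anterior. Levels are UMIs of a gene scaled to a total of 1000000 (CPM), and because the assay counts 1 tag at the 3′ end of each transcript they can be compared between genes without division by length. The summed level of the 49 genes was 627 ± 11.8 CPM in the fin-marker gate (SD, n = 2 libraries), 506 ± 66.5 in the neuron gate and 395 ± 16.8 in the smooth muscle gate. In CPM these 3 gates kept this order in both libraries and did not overlap. CPM lack the TMM scaling between gates that the tests below use. The order of the neuron and smooth muscle gates on that scale was not examined. The pericyte gate, at 257 ± 38.7 CPM, and the fibroblast gate, at 243 ± 27.0 CPM, did overlap. The tenocyte gate followed at 170 ± 5.1, the glia gate at 108 ± 2.4 and the cartilage gate at 44.1 ± 3.2 CPM. As a background for free RNA, the immune gate gave 26.9 and 44.6 CPM. The erythroid gate, with 13 and 28 cells and 2 Hox UMIs in each library, gave 10.4 and 4.7 CPM. The epidermis gate, shown beside them, gave 62.05 and 60.6 CPM, and whether its cells express Hox genes themselves was not tested. The cartilage gate, at 46.4 and 41.9 CPM, was above the erythroid gate in both libraries. It lay between the immune and epidermis gates in library 1 and below both in library 2.

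The share of each class of paralog group in the Hox UMIs separated the gates further. Posterior genes made up 80.3% of the Hox level of the fin-marker gate, and anterior and central genes 12.96% and 6.73%. The neuron gate had the opposite order, with 4.3% posterior, 51.6% central and 44.1% anterior. Glia-gate Hox UMIs were 77.4% anterior. The smooth muscle gate spread over all 3 classes (32.0% anterior, 28.0% central, 40.0% posterior), whereas the pericyte gate was 58.9% anterior and 21.1% central. Fibroblast and tenocyte gates resembled each other, at 46.6% and 48.6% anterior and 31.4% and 27.5% posterior. Taking each gene where its mean level was highest, 21 of the 49 genes peaked in the fin-marker gate, 15 in the neuron gate, 7 in the smooth muscle gate, 3 in the pericyte gate and 1 each in the fibroblast, cartilage and glia gates, and none in the tenocyte gate. For 38 of the 49 the highest gate was the same in both libraries.

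**Figure D1:**
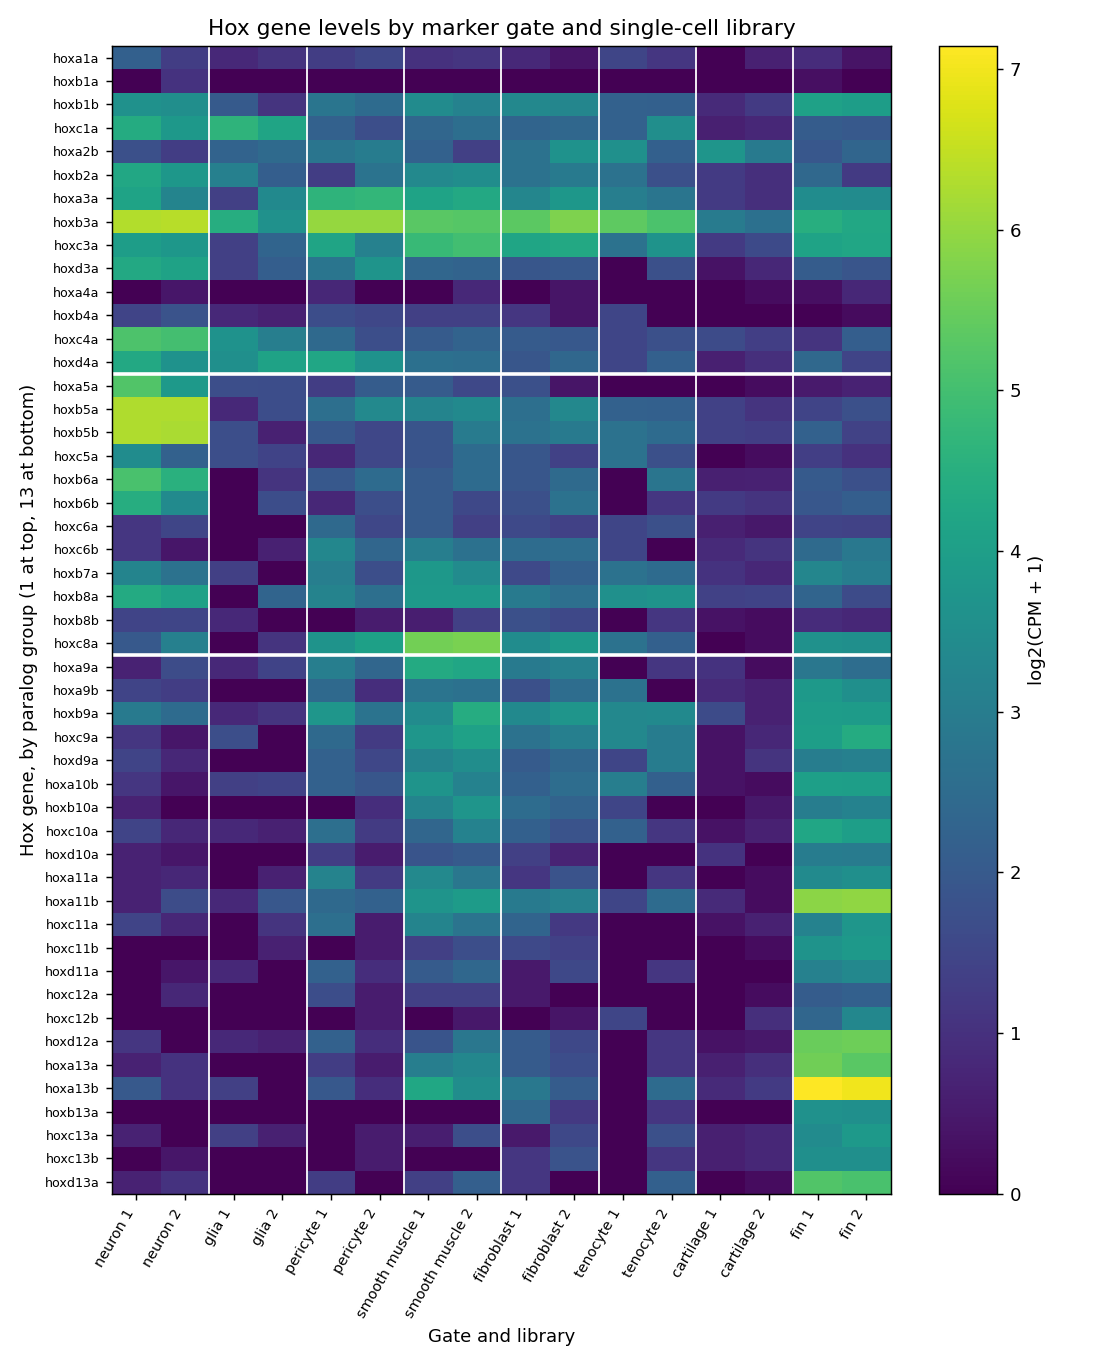
Level of each of the 49 Hox genes (rows, ordered by paralog group from 1 at the top to 13 at the bottom, white lines between groups 4 and 5 and between 8 and 9) in 8 marker gates of single-cell libraries 1 and 2 (columns), as log2(CPM + 1). The lower right block, posterior genes in the fin gate, and the upper left block, anterior and central genes in the neuron gate, hold the brightest cells, and hoxb3a is bright in most gates.

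**Figure D2:**
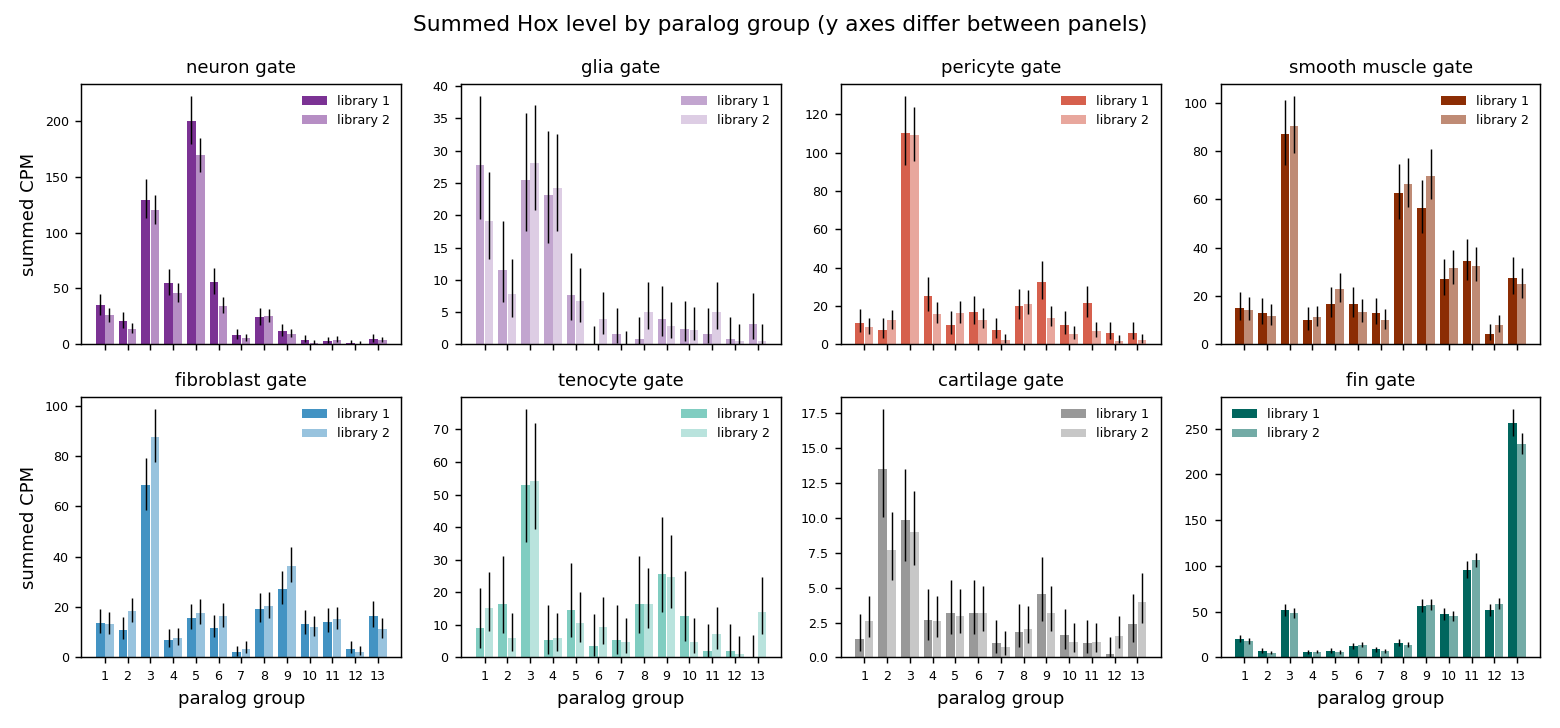
Summed CPM of each paralog group (x axis, 1 to 13) in the 8 gates, 1 bar per library, with exact 95% Poisson intervals that cover counting error only; the y axes differ between panels. The fin gate peaks at group 13, the neuron gate at group 5, and the pericyte, fibroblast and tenocyte gates at group 3.

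In the fin-marker gate the level peaked at the end of the series: group 13 alone, with its 6 genes, reached 256 CPM in library 1 and 233 in library 2, against 16.5 and 11.3 in the fibroblast gate. The highest single member was hoxa13b, at 140.4 and 126.7 CPM in the fin-marker gate and 6.3 and 3.2 CPM in the fibroblast gate. Next came hoxa11b at 58.3 and 60.6 CPM against 6.7 and 7.7, hoxa13a at 47.4 and 38.5 against 3.1 and 2.3, hoxd12a at 44.3 and 46.4 against 3.1 and 1.9, and hoxd13a at 36.1 and 33.4 against 1.2 and 0. For each of these 5 genes both fin-marker values stood far above both fibroblast values. The group 13 genes of the other clusters were lower: hoxb13a had 11.3 and 10.7 CPM, hoxc13a 10.0 and 13.2, and hoxc13b 10.9 and 10.7. The hoxab cluster supplied 36.3% and 35.1% of the Hox UMIs of this gate and the single hoxda cluster 17.3% and 17.4%, against 10.9% and 12.3%, and 6.7% and 6.0%, in the fibroblast gate.

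Tested with edgeR's quasi-likelihood method over 15539 genes, 19 Hox genes were higher and 2 lower in the fin-marker than in the fibroblast gate at an adjusted p under 0.05, where 8.40% of all genes tested were called higher and 7.48% lower. Of the 49 genes 41 had enough counts to be tested in any comparison; hoxa1a, hoxb1a, hoxa4a, hoxb4a, hoxc6a, hoxb8b, hoxc12a and hoxc12b did not. The 19 higher genes included 17 of the 23 posterior genes, among them all 6 of group 13 and all 5 of group 11. The largest differences were those of hoxd13a, with a log2 fold change of 6.03 (standard error 0.56, edgeR adjusted p = 1.57e-07), and hoxa13b, with 4.99 (0.33, edgeR adjusted p = 7.59e-10). For hoxd13a the fibroblast gate held only 3 UMIs against 391, a ratio of summed counts per depth of 64.99 with an exact 95% interval, for counting error only, of 22.1 to 316. Values for hoxd12a, hoxa13a, hoxc13a and hoxa11b were 4.32, 4.13, 3.36 and 3.19. Among posterior genes, hoxa9a, hoxb9a, hoxd9a and hoxb10a were tested and not called, and so differences were called for 2 of the 5 genes of group 9, 3 of the 4 of group 10 and the 1 gene of group 12 that was tested.

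Outside the posterior genes only 4 differed. Higher were hoxb7a (log2 fold change 1.60, edgeR adjusted p = 0.0493) and hoxb1b (0.94), and lower were hoxb5a (-1.60) and hoxb3a (-1.07, edgeR adjusted p = 0.000577). In CPM, hoxb3a went from 39.7 and 52.8 in the fibroblast gate to 21.3 and 18.6 in the fin-marker gate, without overlap between the gates. All 21 called genes had the same sign in both libraries, and 12 of them were called under each of the 10 alternative settings. Over all 49 genes, fitted without a filter on low counts, the median log2 fold change was 1.002, against 0.01 over all genes. The fin-marker gate was also the deeper of the pair, with medians of 8057 and 8354 UMIs per cell against 5388 and 5351, and its part in the calls was not tested.

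**Figure D3:**
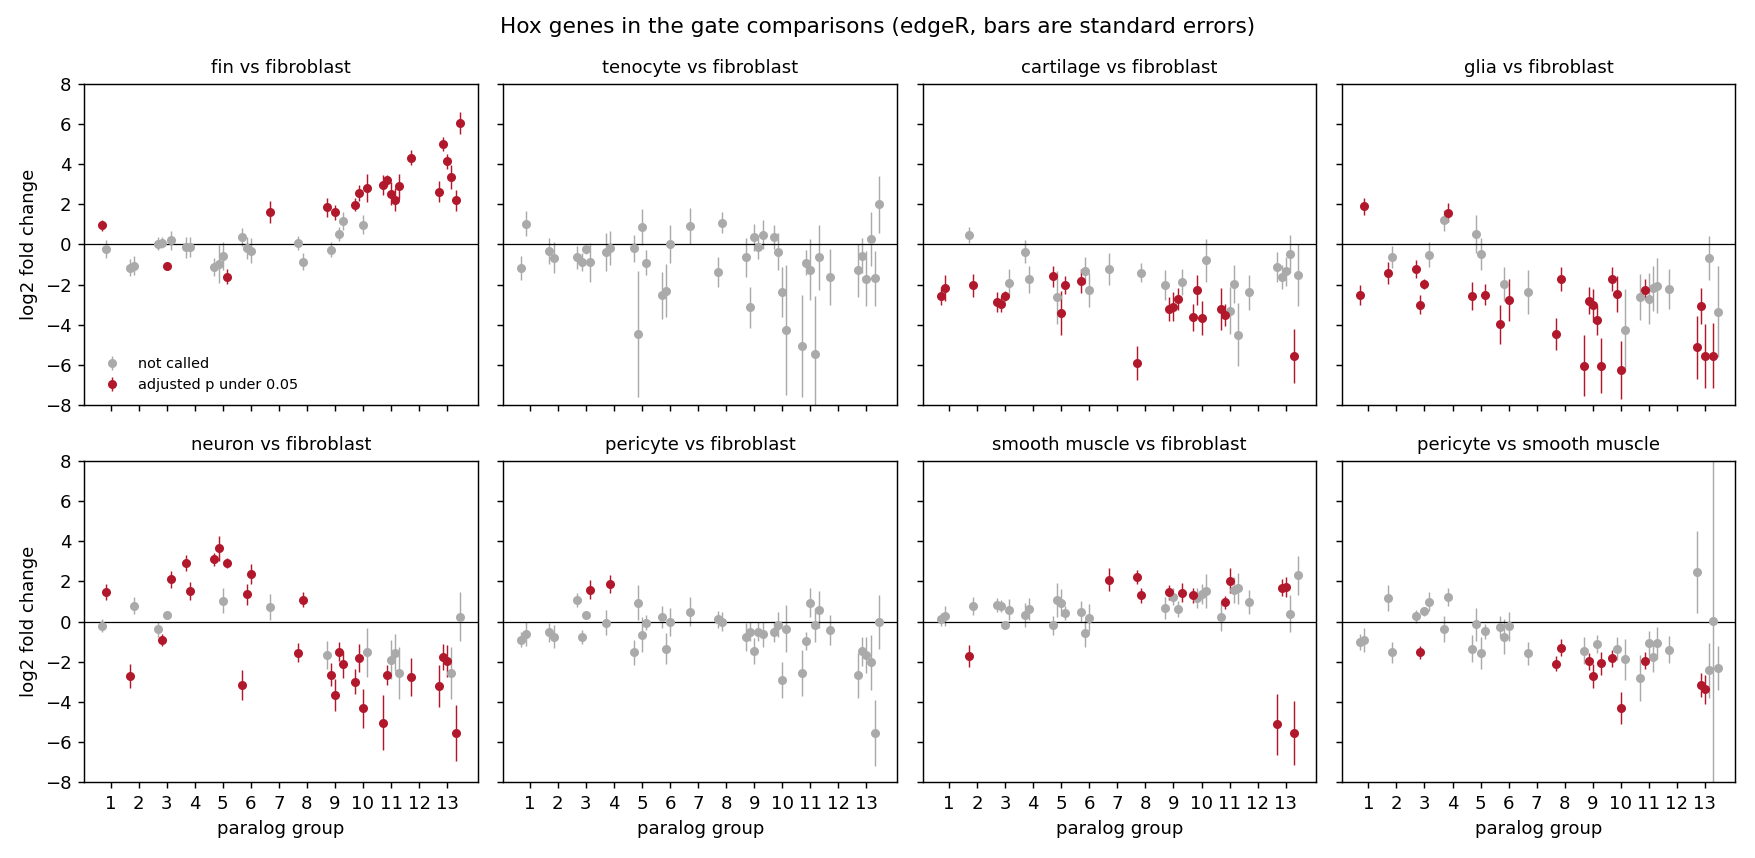
Log2 fold change of the 41 tested Hox genes (y axis) against paralog group (x axis; points of 1 group are spread sideways) in 8 edgeR comparisons of gates, with standard errors as bars, some of which run past the panel; red marks an adjusted p under 0.05. In the fin panel the red points reach 6.03 at hoxd13a, and the tenocyte panel has no red point. In the neuron panel all red points above 0 lie in groups 1 to 8, where others, such as hoxc3a and hoxc6b, lie below 0. After group 8 every red point of that panel lies below 0.

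The fin-marker gate was not uniform. tbx5a encodes a T-box factor that marks the pectoral fin field, and the gate was divided, after the data had been seen and with no test, into cells with a tbx5a UMI (98 and 135) and without one (458 and 623). A missed transcript cannot be told from an absent one, so cells without a tbx5a UMI may include cells that express it. Cells with tbx5a had 882 and 750 CPM of posterior Hox RNA, against 418 and 442 in cells without a tbx5a UMI. Of the 12 posterior HoxA and HoxD genes, 9 were higher with tbx5a in both libraries: hoxa13b had 325 and 218 CPM against 96.7 and 105, hoxd13a 116 and 87.7 against 17.2 and 20.6, and hoxd12a 106 and 112 against 29.8 and 30.7. The exceptions were hoxa9a, lower in both (1.1 and 1.6 against 7.3 and 5.7 CPM), and hoxa11a (12.5 and 8.5 against 9.1 and 11.2) and hoxd9a (5.7 and 13.96 against 7.5 and 6.2), which differed in direction between the libraries.

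All 11 posterior HoxB and HoxC genes were lower with tbx5a in both libraries. In cells with tbx5a, hoxb13a had 0 and 2.3 CPM, hoxb9a 1.1 and 1.6, hoxb10a 0 and 0.8, hoxc10a 3.4 and 1.6, hoxc11b 2.3 and 0, hoxc13a 1.1 and 6.2, and hoxc13b 1.1 and 3.1. In cells without tbx5a, hoxb13a had 13.97 and 12.7 CPM, hoxb9a 17.5 and 17.1, hoxb10a 8.9 and 9.7, hoxc10a 21.0 and 18.2, hoxc11b 13.97 and 16.4, hoxc13a 12.1 and 14.9, and hoxc13b 13.2 and 12.5. For these 7 genes the values with tbx5a rest on 0 to 8 UMIs each. hoxa9b was higher with tbx5a, at 26.2 and 22.5 CPM with tbx5a and 10.48 and 8.1 without. Central genes summed to 14.8 and 24.8 CPM with tbx5a and 51.3 and 43.7 without. Median depth was 9287 and 8523 UMIs with tbx5a and 7878 and 8283 without, and the part of depth in the split was not tested.

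Even so, the group 13 genes of the different clusters were met in the same cells. With every cell thinned to 2000 UMIs, 24.1% and 26.0% of fin-marker cells had a UMI of hoxa13a, hoxa13b or hoxd13a, and 4.7% and 4.1% one of hoxb13a, hoxc13a or hoxc13b. Of the latter, 42.3% in library 1 (11 of 26 cells) and 48.4% in library 2 (15 of 31) also had one of the former, against 23.3% and 25% of the remaining cells. The co-detected cells were few and no test was made.

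Fibroblast-gate cells carried a code weighted to group 3. All genes of this group span other Hox genes in the RefSeq models, so which gene these reads came from is uncertain. In them hoxb3a had 39.7 and 52.8 CPM, hoxc3a 17.3 and 19.0, hoxa3a 8.6 and 12.9, and the central gene hoxc8a 10.2 and 13.2. All 4 were detected in both libraries, and the other fibroblast values stayed under 13 CPM. Split by other markers, the 73 and 78 fibroblast-gate cells with a UMI of dlx5a, dlx3b or shox, genes known from the face and from appendages, had 79.5 and 187 CPM of Hox RNA, against 257 and 277 in the rest. Cells with tcf21 or foxd1, in contrast, had 271 and 299 CPM against 210.1 and 253, with anterior genes (129 and 169 against 91.9 and 117 CPM) and central genes (81.5 and 83.5 against 39.4 and 51.9) higher and posterior genes lower (60.3 and 46.8 against 78.8 and 84.2). These posterior values rest on 34 and 28 UMIs. Their exact 95% counting intervals overlapped those of the rest in library 1 (41.7 to 84.2 against 66.9 to 92.2 CPM) but not in library 2 (31.1 to 67.6 against 73.2 to 96.3). Cells with cilp or myoc also had more Hox RNA, 241 and 275 CPM against 209 and 251. A higher level was thus not particular to cells with tcf21 or foxd1. The genes tcf21, cilp and myoc are themselves markers of the fibroblast gate. None of these splits was tested.

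Tenocyte-gate cells, marked by tendon genes such as tnmd and scxa, had no Hox gene called against fibroblast-gate cells. Few genes of any kind were called, so this count does not set Hox genes apart. The summed Hox level of the tenocyte gate was 166 and 174 CPM, against 224 and 262 in the fibroblast gate. The median log2 fold change of the tested Hox genes was -0.65 (all genes -0.08). It was -0.37 with genes at 0 set to a floor of 3 counts. Neither shift was tested. With edgeR 0 Hox genes were called, where 0.541% of all genes tested were called higher and 0.573% lower, and 2 Hox genes (hoxa9a and hoxc6b) had an unadjusted p under 0.05. DESeq2 called 0 Hox genes, where 234 of all 15539 genes tested were higher and 132 lower. Levels of hoxb3a were 40.2 and 34.0 CPM, within or close to the fibroblast range, and the 95% interval of its log2 fold change ran from -0.74 to 0.27. With 80 and 121 cells, 91 and 148 Hox UMIs were counted, and 21 and 12 of the 49 genes had none, so for the rarer genes a difference was not detectable at this depth.

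Cartilage-gate cells had little Hox RNA. With edgeR 20 Hox genes were lower and 0 higher than in the fibroblast gate, against 7.72% of all genes tested lower and 8.73% higher; 6 were anterior, 5 central and 9 posterior. hoxc8a fell from 10.2 and 13.2 CPM to 0 and 0.2 (edgeR adjusted p = 1.34e-05), and hoxb3a from 39.7 and 52.8 to 6.9 and 5.3 (log2 fold change -2.55). With 1 UMI against 67, the ratio of hoxc8a was 0.00927 of the fibroblast level, with an exact counting interval of 0.000231 to 0.0534. hoxb13a had no UMI in the cartilage gate and 15 in the fibroblast gate, which makes it at least 8.05-fold lower against a floor of 3 counts over the gate. The 1 tested gene with a fitted value above 0 was hoxa2b, known for giving the hyoid arch of the face its identity. Its levels of 12.2 and 6.8 CPM in cartilage and 5.5 and 11.6 in the fibroblast gate overlapped, its log2 fold change was 0.45 (95% interval -0.32 to 1.22), and it was the highest Hox gene of the cartilage gate in both libraries. Over all 49 genes without a filter the median log2 fold change was -2.004 (all genes -0.01), and 11 of the 20 were called under all 9 alternative settings.

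Mural cells are the pericytes and smooth muscle cells that wrap vessels. The smooth muscle gate was set by contractile genes such as acta2, tagln and myh11a, and whether its cells wrap vessels was not tested. The pericyte and smooth muscle gates, called mural here, were first compared with the fibroblast gate as the mean of both. After the levels had been seen, each was compared alone. As a mean, 2 Hox genes were higher (hoxa3a, log2 fold change 0.94, and hoxc8a, 1.15) and 2 lower (hoxb13a and hoxc13b). Of the 41 Hox genes tested, these are shares near or below those of all genes tested (4.61% higher and 6.82% lower). The lower genes rest on few UMIs: hoxb13a had none in the mural gates against 15, and hoxc13b 1 against 11, a ratio of 0.0638 (exact counting interval 0.00148 to 0.439). None of the 4 was called under every alternative setting. Compared directly, 11 Hox genes were lower and 0 higher in the pericyte than in the smooth muscle gate, against 7.61% of all genes tested lower and 4.87% higher, and 10 of the 11 were called under all 9 alternatives.

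Smooth muscle-gate cells carried the more posterior code. Their highest member was hoxc8a, at 48.4 and 51.4 CPM, against 11.8 and 15.7 in the pericyte gate and 10.2 and 13.2 in the fibroblast gate. hoxa9a had 19.8 and 17.6 CPM in the smooth muscle gate, 7.4 and 4.2 in the pericyte gate and 6.7 and 7.7 in the fibroblast gate. For both genes the smooth muscle values lay above all others. Of the 11 genes lower in the pericyte gate, 8 were posterior, 2 central and 1 anterior, led by hoxb10a, hoxa13a, hoxa13b (log2 fold change -3.18) and hoxc9a (-2.70). The pericyte gate held 2 UMIs of hoxb10a against 48, a ratio of 0.0535 (exact counting interval 0.0063 to 0.204), and 3 of hoxa13a against 37, a ratio of 0.104 (0.0206 to 0.329). hoxc8a was lower by -2.10 on the log2 scale (standard error 0.36, edgeR adjusted p = 0.000227).

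Against the fibroblast gate, the smooth muscle gate had 10 Hox genes higher and 3 lower, where 8.46% of all genes tested were higher and 7.86% lower. The higher genes were hoxc8a (log2 fold change 2.20, standard error 0.34, edgeR adjusted p = 4.06e-05), hoxb7a (2.09), hoxa11a (2.04), hoxa13a (1.71), hoxa13b (1.68), hoxa9a (1.46), hoxd9a (1.44), hoxb8a (1.31), hoxa10b (1.30) and hoxa11b (0.96). DESeq2 called 8 Hox genes higher and 0 lower, where 1333 of all 15539 genes tested were higher and 1115 lower. Of the 13 genes, 3 were called under all 9 alternatives. Lower were hoxa2b (-1.72), and hoxb13a and hoxc13b, which had no UMI in the gate and were at least 4.01-fold and 2.94-fold lower. Posterior levels of the smooth muscle gate (149.5 and 167 CPM) remained below those of the fin-marker gate (507 and 501), and the most posterior group, 13, made up 27.6 and 24.9 CPM.

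In pericyte-gate cells group 3 had the highest level of the 13 groups, 110.3 and 109.1 CPM, or 38.9% and 47.6% of the Hox UMIs. Reads of this group may come from the Hox genes that its members span. hoxb3a reached 63.2 and 63.8 CPM and hoxa3a 24.3 and 25.4, against 39.7 and 52.8, and 8.6 and 12.9, in the fibroblast gate. Both were above the fibroblast values in both libraries, but neither was called on its own (hoxa3a edgeR adjusted p = 0.0648, hoxb3a 0.457). The 2 Hox genes called higher were hoxd4a, with 17.6 and 11.6 CPM against 2.8 and 4.2 (log2 fold change 1.87, edgeR adjusted p = 0.0134), and hoxd3a, with 5.9 and 12.01 against 2.8 and 2.9 (1.57, edgeR adjusted p = 0.0452). Over all genes tested 2.79% were called higher and 4.19% lower, no Hox gene was called lower, and neither of the 2 was called under every alternative. Posterior levels of the pericyte gate differed between the libraries, at 75.7 and 30.5 CPM.

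Neurons carried an anterior and central code with a sharp end. In the neuron gate hoxb3a had 79.2 and 82.7 CPM, hoxb5a 76.8 and 76.9, hoxb5b 76.8 and 75.1, hoxc4a 34.3 and 31.4 and hoxb6a 33.1 and 22.4. Group 5 summed to 199.8 and 169 CPM, against 15.7 and 17.7 in the fibroblast gate. Groups 10 to 13 each stayed under 5 CPM in both libraries, at or below the levels of those groups in the fibroblast gate. The hoxba cluster supplied 44.1% and 48.9% of the Hox UMIs of this gate and hoxbb 19.98% and 21.2%, against 36.4% and 38.01%, and 8.6% and 8.7%, in the fibroblast gate.

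With edgeR the neuron gate had 10 Hox genes higher and 18 lower than the fibroblast gate, where 27.4% of all genes tested were higher and 26.6% lower. Among the 41 tested Hox genes the share called higher was thus below that of all genes, and the share called lower was above it. The higher genes were hoxa5a (log2 fold change 3.65), hoxb5b (3.11), hoxc4a (2.92), hoxb5a (2.91, standard error 0.26, edgeR adjusted p = 3.05e-09), hoxb6a (2.37), hoxd3a (2.10), hoxd4a (1.54), hoxc1a (1.47), hoxb6b (1.36) and hoxb8a (1.07), all of groups 1 to 8. hoxa5a had 36.1 and 13.4 CPM, a wide spread, and still lay above the fibroblast values of 2.4 and 0.3. The lower genes were 14 posterior ones with hoxc3a (-0.92), hoxa2b (-2.72) and hoxc8a (-1.56), and with hoxc6b, whose 3 UMIs against 27 gave a ratio of 0.141 (exact counting interval 0.0273 to 0.457). hoxb3a, the most abundant gene, was not called (log2 fold change 0.30, 95% interval -0.09 to 0.69). DESeq2 called 11 Hox genes higher and 12 lower, where 4610 of all 15539 genes tested were higher and 3402 lower. The cells of this gate were the shallowest of the 8, with medians of 3041 and 3213 UMIs.

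Glia-gate cells were lower in most Hox genes, with 24 lower and 2 higher than in the fibroblast gate, where 23.1% of all genes tested were lower and 18.2% higher. The 2 higher genes were hoxc1a, with 23.9 and 16.9 CPM against 3.9 and 4.2 (log2 fold change 1.90, edgeR adjusted p = 0.000848), and hoxd4a, with 10.8 and 16.3 against 2.8 and 4.2 (1.57). Both belong to the groups known from the hindbrain, and both were also called higher in the neuron gate. hoxb3a was lower, at 20.8 and 11.2 CPM (-1.97). Genes with no UMI in the glia gate included hoxb10a, hoxa9b and hoxd9a, at least 4.35-fold, 3.81-fold and 3.81-fold lower than in the fibroblast gate. As a mean of the neuron and glia gates, 4 Hox genes were higher and 22 lower, against 21.6% and 26.2% of all genes tested. In that mean hoxb3a was called lower (-0.84) although its neuron-gate level was above the fibroblast level. Its log2 ratio of plain CPM was -0.75 without library 1 and 0.040 without library 2. Those ratios lack the TMM scaling between gates that the test used. They therefore do not show whether the tested direction differed between libraries.

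Counted as cells rather than UMIs, the gates kept most of this order. After thinning to 2000 UMIs a UMI of any Hox gene was found in 57.3% and 57.2% of fin-marker cells, 49.2% and 45.3% of smooth muscle, 37.0% and 28.7% of pericyte, 27.2% and 30.2% of fibroblast and 27.3% and 26.0% of neuron cells. Tenocyte cells gave 20% and 22.3%, glia cells 12.6% and 15.3% and cartilage cells 8.5% and 7.2%, against 14.6% and 12.8% of epidermis and 7.5% and 4.0% of immune cells. The neuron gate, next to the fin-marker gate by level in CPM, had about the share of the fibroblast gate, and single neuron-gate cells held up to 8 (library 1) and 10 (library 2) Hox genes. Thinning left out 77 and 96 neuron cells as too shallow and at most 10 of any other gate in a library.

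Posterior genes were found in 45.2% and 48.1% of thinned fin-marker cells, 22.7% and 20.3% of smooth muscle cells and 10.6% and 8.2% of fibroblast cells. In the neuron gate the share (4.4% and 3.0%) was below that of epidermis cells (6.5% and 5.4%), and no posterior expression is read from it. In the pericyte gate (7.4% and 4.7%) it was above the epidermis share in library 1 and below it in library 2, while its posterior level, 75.7 and 30.5 CPM, was above that of the epidermis gate (25.3 and 21.7) in both. Without thinning the any-Hox shares were 83.3% and 82.1% in the fin-marker gate, 47.9% and 50.6% in the fibroblast gate, 41.3% and 42.2% in epidermis and 18.9% and 14.5% in immune cells. Among fin-marker cells with a Hox UMI, the most posterior group found was 13 in 46.9% and 49.1%.

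**Figure D4:**
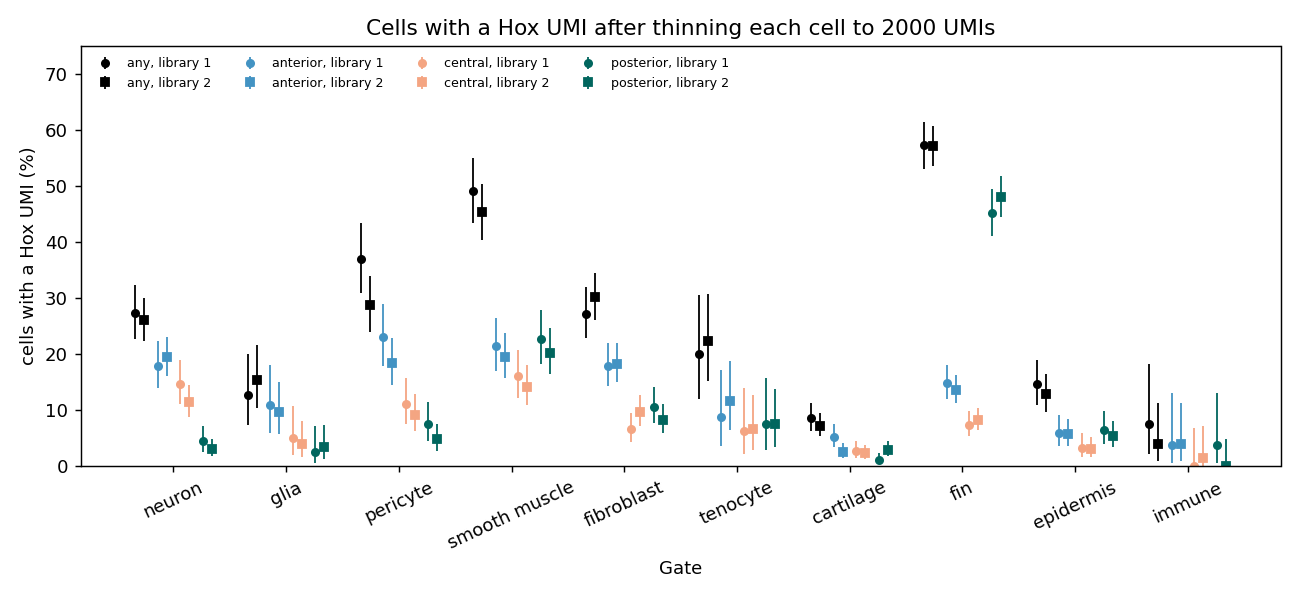
Share of cells with at least 1 Hox UMI (y axis, %) after thinning each cell to 2000 UMIs, in 8 gates (x axis). The epidermis and immune gates are shown for comparison. Shares are for any Hox gene and for anterior, central and posterior genes. Circles are library 1, squares library 2, and bars exact 95% binomial intervals for counting error only. Posterior genes were found in 45.2% and 48.1% of fin cells, while the other gates stay under 23%.

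Genes that go with a posterior code within a gate were sought by comparing thinned cells that had a posterior Hox UMI with cells that had no Hox UMI, in the fibroblast gate (42 and 40 against 289 and 340 cells) and the fin-marker gate (251 and 363 against 237 and 323). The other connective gates had under 20 posterior cells in a library. Hox genes themselves were left out. edgeR, with each library and gate as a pair, called 99 of 4093 genes higher (2.42%) and 142 lower (3.47%) in the posterior cells. Of the fin and limb genes, 6 of 8 tested were higher: msx2b (log2 fold change 1.68) and msx1b (1.16), homeobox genes of fin mesenchyme, tbx5a (1.66), the growth factor gene fgf10a (1.54), and the actinotrichia genes and2 (1.40) and and1 (1.15). prrx1a (-0.21) and prrx1b (-0.38) were not called, and the genes and1, and2, prrx1a and prrx1b are themselves markers of the fin-marker gate. msx2b, and1 and and2 were called under every alternative setting other than library 1 alone, where 0 of all genes were called. The other 3 were not: at 1000 UMIs tbx5a was at 0.31 (edgeR adjusted p = 0.760) and fgf10a at 0.60 (0.301), DESeq2 did not call tbx5a (adjusted p = 0.0587) or msx1b (0.258), and library 2 alone did not call tbx5a (1.14) or fgf10a (1.48). In the fibroblast gate alone fgf10a was at 0.75 and msx1b at -0.22, neither called, and tbx5a had too few counts to test. In the fibroblast gate msx2b had 47.7 and 62.6 CPM in posterior cells against 8.7 and 11.8 in cells without Hox, and in the fin-marker gate 451 and 465 against 143 and 176, higher in both gates.

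Lower in the posterior cells were 2 of 9 tested head mesenchyme genes, six1a (-2.19) and dlx4a (-2.81), 1 of 2 axial mesoderm genes, meox1 (-1.71), and the cofactor genes meis2b (-1.39) and pbx3b (-1.48) of 8 cofactors tested. None of these 5 genes was called at 1000 UMIs, where 2 were tested, or in the fibroblast gate alone, where 4 were tested and had values from -1.68 to -0.75. Library 2 alone called 1 of them, meox1, and DESeq2 did not call meox1 or meis2b. Besides these lists, the highest called genes with 1 direction in every library and gate included the chemokine gene cxcl8b.1 (2.13), dhrs3b (1.95), an enzyme of retinoid metabolism, c1qtnf5 (1.76) and ucp1 (1.62). Both c1qtnf5 and ucp1 are also leading genes of the fin-marker gate. In the fibroblast gate ucp1 had 381 and 275 CPM in posterior cells and 62.3 and 47.1 in cells without Hox. In the fin-marker gate it had 3338 and 3987 against 1688 and 1624. Whether fin-type cells within the fibroblast gate have a part in these calls was not tested. cxcl8b.1 was not called at 1000 UMIs (1.09, edgeR adjusted p = 0.417) or with no replicate block (adjusted p = 0.0513). Called lowest were zgc:158423, slc38a3a, abi3bpa and postna, each with 1 or 2 UMIs in the thinned posterior cells, and then epd (-4.44). For postna, a matricellular protein gene, 1 UMI against 143 gave a ratio of 0.01196 (exact counting interval 0.000301 to 0.0677), and for abi3bpa 2 against 349 gave 0.0098 (0.00118 to 0.0357). In the fibroblast gate alone zgc:158423 was not called (edgeR adjusted p = 0.133) and slc38a3a was not tested. epd, an ependymin gene, had 1538 and 3155 CPM in fin-marker cells without Hox and 87.7 and 84.1 in posterior ones, and a UMI of it occurred in 37.6% to 55.7% of the cells of each of the 8 gates. The posterior cells were deeper before thinning (fin-marker medians 8537 and 8952 against 8018 and 7880). Without the fin-marker gate 55 genes were higher and 39 lower, 57 of these 94 shared with the full comparison. Library 2 alone called 150 genes, and library 1 alone called 0, with 310 at an unadjusted p under 0.05.

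Hox proteins bind DNA together with TALE homeodomain cofactors of the Meis, Pbx and Pknox families, and 13 of the 14 listed genes were tested between gates. Against the fibroblast gate, the fin-marker gate had 6 lower, meis2b (log2 fold change -1.94), pbx1b (-1.64), pbx3b (-1.54), meis2a (-1.35), meis1b (-1.33) and pbx1a (-1.11), and 1 higher, pknox2 (1.57). The cartilage gate had 6 lower, from meis2b (-4.32) and meis3 (-2.84) to pbx1a (-0.64), and pknox2 higher (1.55). Over all genes tested 7.48% were lower in the fin-marker and 7.72% in the cartilage gate, and 8.40% and 8.73% were higher. The 1 higher gene of 13 was thus near the share of all genes in both gates. In the neuron gate 4 were higher, pknox2 (2.01), pbx3b (1.78), meis2a (1.18) and pbx1a (0.46), and 2 lower, meis1a (-2.45) and pbx2 (-1.45), shares near or below those of all genes tested (27.4% higher and 26.6% lower). Glia had 7 lower and 0 higher, where 23.1% and 18.2% of all genes were called. Smooth muscle had 3 higher, meis2a (0.76), pbx3b (0.66) and meis1a (0.64), and 4 lower, against 8.46% and 7.86% of all genes, while the pericyte gate had 3 lower, against 4.19%, and the tenocyte gate 0 in either direction. Directly compared, the pericyte gate was below the smooth muscle gate in meis2a (-1.67), pbx3b (-1.56), meis1a (-1.15) and meis1b (-0.97). In that comparison 7.61% of all genes tested were lower and 4.87% higher.

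Of the 20 listed regulators of Hox genes, 17 were tested. Retinoic acid is the best known of the inducing signals, made by the enzyme of aldh1a2, removed by those of the cyp26 genes and sensed by the rar receptors. In the fin-marker gate aldh1a2 (-1.72), raraa (-1.34) and rarga (-0.65) were lower and the Polycomb gene cbx2 (1.004) higher than in the fibroblast gate, against 7.48% and 8.40% of all genes tested. In the cartilage gate cyp26a1 (-4.39) and aldh1a2 (-2.90) were lower and cyp26c1 (3.105) higher, against 7.72% and 8.73%. The tenocyte gate had 1 gene called, aldh1a2 (-1.60), where 0.573% of all genes tested were lower. The smooth muscle gate had 6 lower, cyp26b1 (-2.61) the lowest, and the pericyte gate 4, against 7.86% and 4.19% of all genes. In the neuron gate 3 were higher and 5 lower, the lowest being rargb with 3 UMIs against 72, a ratio of 0.0528 (exact counting interval 0.0106 to 0.161), and in the glia gate 6 were higher, gdf11 (2.20) and ezh2 (1.89) leading, and 6 lower. With 27.4% of all genes higher and 26.6% lower in the neuron gate, and 18.2% and 23.1% in the glia gate, the neuron counts were near or below the shares over all genes.

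Of 14 listed genes that neighbour Hox clusters, 10 were tested. mtx2, which lies beside the HoxD cluster in vertebrates, was higher in the fin-marker (0.85) and neuron (0.67) gates than in the fibroblast gate, and lower in the pericyte than in the smooth muscle gate (-1.15). snx10a was higher in the fin-marker gate (2.34), and lnpa in the cartilage gate (1.32). In the glia gate 3 neighbours were higher and 4 lower, where 18.2% and 23.1% of all genes tested were called; in the fin-marker gate 2 were higher and 0 lower, against 8.40% and 7.48%.

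In the um148 bulk libraries, the authors' deposited table lists 13 of the 49 Hox genes among 17540: 9 of the 14 anterior, 1 of the 12 central and 3 of the 23 posterior genes. The lowest mean over the um148 libraries of any gene in it is 15.03 normalized counts, so rarer genes are not listed. On this scale hoxb3a was the steadiest, with 833, 825 and 829 normalized counts in libraries 1, 2 and 3, a mean of 829 ± 4.3 (SD, n = 3). A read counted as 1.009, 0.998 and 0.990 normalized counts in these libraries, while their totals were 16848358, 19440480 and 21437870 reads. How even a gene is across libraries therefore depends on this scaling. hoxa2b had 219.9, 289 and 291, hoxa3a 247, 207 and 222, and hoxb2a 139.2, 191 and 160.4. In these 4 anterior genes the highest library was at most 1.37 times the lowest, while 2 other anterior genes were less even, hoxc1a at 80.7, 25.96 and 29.7 and hoxc3a at 89.8, 67.9 and 38.6. Among the posterior genes hoxa11b had 37.3, 24.0 and 82.2 normalized counts, hoxa10b 33.3, 21.0 and 21.8, and hoxa13b 73.6, 52.9 and 55.5. Library 3 was the highest for hoxa11b and library 1 for the other 2. Across the 13 genes, the highest library was under 1.5 times the lowest for 8 genes and over 2 times for hoxc1a, hoxc3a, hoxb5a and hoxa11b. Levels are not compared between genes here, since reads fall along the transcript.

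The authors compared um148 with wild-type, and no Hox gene passed an adjusted p under 0.05 in their deposited table, where 11.3% of the 16853 genes with an adjusted p did. The gene with the lowest p there was hoxd3a, the 1 Hox gene under 0.05 before adjustment, with a log2 fold change (um148 over wild-type) of -0.78 and an adjusted p of 0.172 in the authors' deposited table. The um148 values of hoxd3a were 80.7, 77.9 and 70.3 normalized counts. The largest values in the authors' deposited table were those of hoxa11b (-0.98) and hoxb5a (-0.90), and hoxb3a stood at -0.59 with an adjusted p of 0.227. By sign alone 12 of 13 lay below 0, hoxa2b (0.20) being the exception, where 48.6% of all listed genes did. The median of the 13 in the authors' deposited table was -0.48 and that of all genes 0.02; the 13 share the same libraries and are not independent. In bulk cells, fewer cells of a type and less RNA per cell cannot be told apart.

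As a check of the label, the ligand genes pdgfba (84.7, 54.9 and 132.7 normalized counts) and pdgfbb (61.5, 14.98 and 32.7) were present in the um148 libraries, and each had a log2 fold change of -0.66 in the authors' deposited table, with adjusted p-values of 0.366 and 0.538. pdgfrb, whose sequences drive the reporter used for the sort, was lower there (-1.21, adjusted p = 0.0014). None of 13 listed cofactors was called in that table. Of 18 regulators, rargb (2.60) and kmt2a (0.71) were higher and cyp26a1 (-1.42) lower, and of 7 cluster neighbours none was called. Among all genes with an adjusted p, 11.3% were called.

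**Figure D5:**
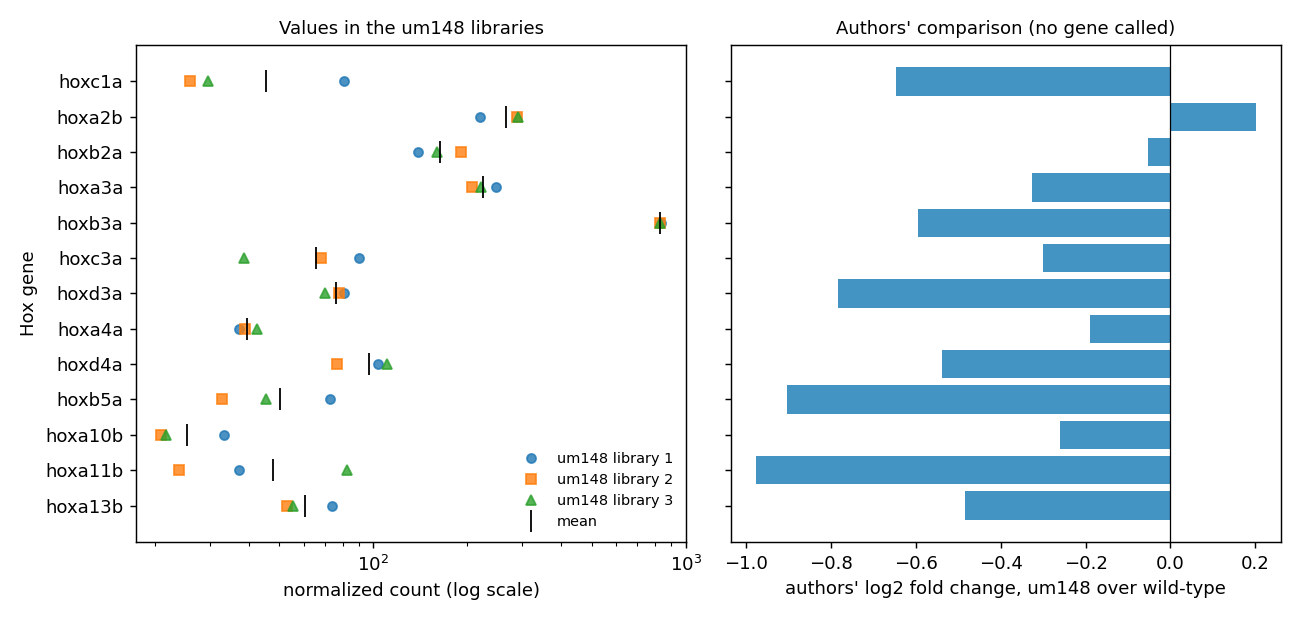
Left, normalized counts (log axis) of the 13 listed Hox genes in um148 libraries 1 to 3, with the mean as a vertical bar; right, the log2 fold change of um148 over wild-type from the authors' deposited table, for the same genes. The points of hoxb3a coincide near 829, those of hoxa11b run from 24.0 to 82.2, and all bars but that of hoxa2b point below 0, none of them past the authors' threshold.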

How the data were processed

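Single-cell UMI counts were deposited by the authors as matrices of called barcodes made with 10x software 3.1.0, per the file headers; the submitters' processing notes name the build GRCz11, Cell Ranger 3.1.0, CASAVA 1.8.2, STAR, RSEM and DESeq2 without a role for each. The um148 columns hold a normalized signal, in which, per the values, every number of a library deposited by the authors is a whole read count over that library's size factor (100% within 0.01 of a whole number), from 16848358, 19440480 and 21437870 reads. The same deposited table gives the authors' log2 fold change, its ratio form (fold change), a test score, p-values and the −log10 of the adjusted p-value. Of its columns, 3 belong to no sample of the series and were not used.

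Barcodes with under 500 genes or over 10% mitochondrial UMIs were removed. Doublets were kept, and removed as an alternative (282 and 493 cells). A cell entered a gate with UMIs of at least 3 of its markers, the highest share of a list and no other family of gates with 3. UMIs were summed per library and gate and tested with edgeR 4.0.16 (R 4.3.3; TMM, filterByExpr, quasi-likelihood, Benjamini-Hochberg) in 1 fit, with the library as a block because the gates compared come from the same libraries; 10 comparisons were made, 4 of them added after the levels had been seen. DESeq2 1.42.0 was an alternative. Intervals are exact and cover counting error only. Code was tested on simulated data.

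Members, gene lists and gates were chosen with earlier results of these data known. Named genes outside the Hox family were members of the lists, or the 10 highest and 10 lowest called genes with the same direction in each library and gate. No genome of the files' build was used, so no positions are given.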

Additional observations from a re-analysis of the deposited data

Results flagged for a closer look

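Barcodes taken out by the mitochondrial limit also held Hox UMIs, 2161 in library 1 and 307 in library 2, outside all comparisons. Their summed Hox level was 147 and 159.5 CPM, against 224 and 223 CPM in the cells kept. They were flagged because they are a signal in data that no comparison used, above the limit of 3 counts that a count of 0 allows.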

How the results depend on the processing

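Hox genes called stayed within 1.5 times the main count for the fin, tenocyte, cartilage, neural and neuron comparisons and for the pericyte against the smooth muscle gate. For the mural mean (4) the count was 2 with at least 2 markers, 1 with exclusive gates, 1 with DESeq2 and 2 with no replicate block. For the pericyte gate (2) it was 1 with at least 2 markers, at least 4 markers, exclusive gates, doublets removed or no replicate block, and 5 with no filter. For smooth muscle (13) it was 7 with exclusive gates and 8 with DESeq2, and for glia (26) 17 with at least 4 markers. With no replicate block for the library, the pairing left out, the other counts were 20 (fin), 0 (tenocyte), 19 (cartilage), 26 (neural), 10 (pericyte against smooth muscle), 10 (smooth muscle), 27 (neuron) and 25 (glia). RLE size factors moved the median over all genes by more than 0.1 in the neuron comparison (0.06 to 0.30) and in the neural mean (0.03 to 0.19). In the neural mean, the log2 ratio of plain CPM of hoxb3a was -0.75 without library 1 and 0.040 without library 2. These ratios lack the TMM scaling of the test, and the direction per library on that scale was not examined.

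Posterior against no Hox (241 genes) gave 144 at 1000 UMIs, 394 for groups 10 to 13, 428 with no filter, 140 with DESeq2, 329 with no replicate block, 94 without the fin-marker gate, and 0 to 150 when a library was left out. The share of cells with a Hox UMI, at 1000 UMIs and with no thinning, was 17.6% and 49.2% (fibroblast), 13.1% and 40.2% (tenocyte), 41.3% and 82.7% (fin), 3.07% and 20.3% (cartilage), 19.9% and 55.3% (pericyte), 29.0% and 76.1% (smooth muscle), 20.5% and 35.3% (neuron) and 9.55% and 28.7% (glia). With at least 2 markers it was 49.7% (fin) and 19.5% (glia), and with at least 4 markers 18.1% (tenocyte), 65.7% (fin), 6.65% (cartilage) and 25.03% (neuron). The Hox level with at least 2 markers was 160.9 CPM (tenocyte), 525 (fin) and 135.8 (glia); with at least 4 markers 131.2 (tenocyte), 716 (fin), 35.6 (cartilage) and 116 (glia). With exclusive gates it was 154 (tenocyte), 653 (fin), 40.4 (cartilage), 377 (smooth muscle) and 95.9 (glia), with doublets removed 105 (glia), and with and1 and and2 both required, chosen after seeing the data, 742 (fin). Causes were not tested. Depth limits the rarest genes: 8 of 49 had too few counts to test.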

Other observations

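Cells in no gate, 47.4% and 45.9% of those kept, carried 188 and 189 CPM of Hox RNA and held 46.5% and 45.4% of all Hox UMIs. Their posterior level was 55.9 and 62.3 CPM and their hoxb3a level 30.3 and 28.6 CPM. They belong to no comparison above.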
